A study of Homo sapiens with 6 samples.

Results

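HSP90, its cochaperones, the HSP60 and TRiC chaperonins and the J domain, BAG and small heat shock proteins that work with them were followed as 42 genes of the 58735 in the gene count table, each found by its gene symbol. The genes were selected on this same contrast, since the counts that follow had already shown HSP90AA1 among the strongest rises, so their changes and calls below are a description, with no p-value given for them and nothing inferred from them. RNA sequencing was done in the human colorectal cancer cell line LoVo to ask which transcripts depend on SRSF11, a serine/arginine-rich splicing factor. The si-NC condition (3 libraries) received a negative control siRNA and the si-SRSF11 condition (3 libraries) an siRNA against SRSF11, both with the jetPRIME transfection reagent. Poly(A) RNA was sequenced as paired reads of 150 bases. Of the siRNAs that the study describes against SRSF11, the one used for sequencing is not given in the sources used here, so what is measured is the response to transfection with an SRSF11 siRNA in 1 cell line.

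The 6 libraries held 14369525 to 16685719 counts. SRSF11 itself had 1271, 1281 and 1363 counts in si-NC and 789, 789 and 807 in si-SRSF11, which left 57.2% of the si-NC level (log2 fold change -0.81, SE 0.05). A plot in the study brackets the library names the other way round, which would turn every direction below. The conditions here are those of the sample labels, under which SRSF11 was lower in si-SRSF11. All 9 epithelial and colorectal markers examined were present, with a summed level of 5760 to 6122 CPM (counts scaled to library size) in si-NC and 5832 to 6227 in si-SRSF11, although KRT20 and CEACAM5 stayed near 1 CPM and CDX2 was called higher (log2 fold change 0.40). Of 9 markers of fibroblasts, blood and endothelial cells, 6 stayed under 1 CPM in every library, 3 of them (DCN, LUM and PTPRC) at 0 counts, and the summed level, mostly COL1A1, was 13.8 to 15.6 CPM in si-NC and 11.7 to 15.4 in si-SRSF11. The study describes 3 pairs of independent RNA samples without saying what made a pair. No source states that they came from separate cultures, so the p-values below measure the spread between these samples. In RNA from a whole culture, fewer cells that express a gene and less of its RNA per cell cannot be told apart.

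Chaperones bind proteins that are unfolded or not yet mature. HSP90 acts late, on kinases, steroid receptors and other clients that HSP70 and its J domain partners hand over, and cochaperones load clients, time the ATP cycle or connect HSP90 to degradation. The chaperonins enclose a folding chain in a barrel: HSP60, with its lid HSP10, in mitochondria, and TRiC, also called CCT, in the cytosol, where actin and tubulin are its best known clients. Many of these genes are targets of HSF1, the transcription factor of the heat shock response, which binds the heat shock element, a row of short nGAAn units in which each unit is inverted relative to the next.

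The promoters were examined first. The choice of genes did not use their sequence, but it took chaperone genes by name, many of them HSF1 targets. More heat shock elements than in all genes were therefore likely beforehand, and the shares below are a description. RefSeq windows on GRCh38.p14, from 250 bases before to 50 bases after a start site, were on hand for 36 of the 42 genes, as 54 windows. CCT6A, FKBP4, HSF1, HSPB11, ST13 and STUB1 had none. A pair of units was searched as GAA and TTC in either order with any 2 bases between them, and a run of 3 units as the same alternation carried on by 1 more GAA or TTC, on both strands, so that each run contains pairs. A pair lay in at least 1 window of 18 of the 36 genes (50%), against 2645 of the 17393 genes of the count table with a window (15.2%). A run lay in a window of 6 of the 36 (16.7%), against 98 of 17393 (0.563%). Counted by window, a pair was in 19 of 54 (35.2%) against 4737 of all 35116 RefSeq windows (13.5%), and a run in 6 of 54 (11.1%) against 172 of 35116 (0.49%). A match is only a match of letters, and binding was not measured here.

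The stretches of all 6 genes with a run are shown. Among these genes are both cytosolic HSP90 genes and HSP60, whose levels are described below. Each reads in the direction of its gene, 5′ to 3′, and capitals mark the bases of a pair or a run.
HSP90AA1, chr14:102087105-102087134, minus strand: tcTTCCGGAAGGTTCgggaggcTTCTGGAA
HSP90AB1, chr6:44247738-44247863, plus strand: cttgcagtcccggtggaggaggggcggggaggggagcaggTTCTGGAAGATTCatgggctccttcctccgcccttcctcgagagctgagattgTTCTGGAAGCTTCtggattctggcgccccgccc
HSPD1, chr2:197500058-197500087, minus strand: ttTTCTGGAAAGTTCTGGAAccgagcgagg
DNAJA1, chr9:33025274-33025303, plus strand: cgGAACTTTCCAGAAcgctcggtgagaggc
DNAJB6, chr7:157336833-157336932, plus strand: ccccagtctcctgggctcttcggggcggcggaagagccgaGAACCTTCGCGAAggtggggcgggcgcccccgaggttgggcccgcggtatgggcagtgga
CHORDC1, chr11:90223082-90223111, minus strand: cgGAAAATTCGCGAAGGTTCCTGAAacgca

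The run began 88 bases before a start site of HSP90AA1 and was followed by a separate pair. HSP90AB1 carried 2 separate runs, the first 165 bases before a start site. In HSPD1 the 2 runs overlapped and began 245 bases before a start site, but they lay after its other start site. In CHORDC1 3 overlapping runs began 60 bases before the start site. DNAJB6 had 1 run, 131 bases before its start site, and DNAJA1 had 1 that began 3 bases after its own. The windows at the other start sites of HSP90AA1, HSP90AB1 and HSPD1 held no run. The printed stretches of HSP90AA1, HSPD1, DNAJA1 and CHORDC1 lay wholly within annotated exons of these genes. HSPD1 and HSPE1, the genes of HSP60 and HSP10, are read in opposite directions from RefSeq start sites 105 and 539 bases apart. The HSPD1 stretch lay 292 bases before the RefSeq start site of HSPE1, but within GENCODE exons of both genes.

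**Figure D1:**
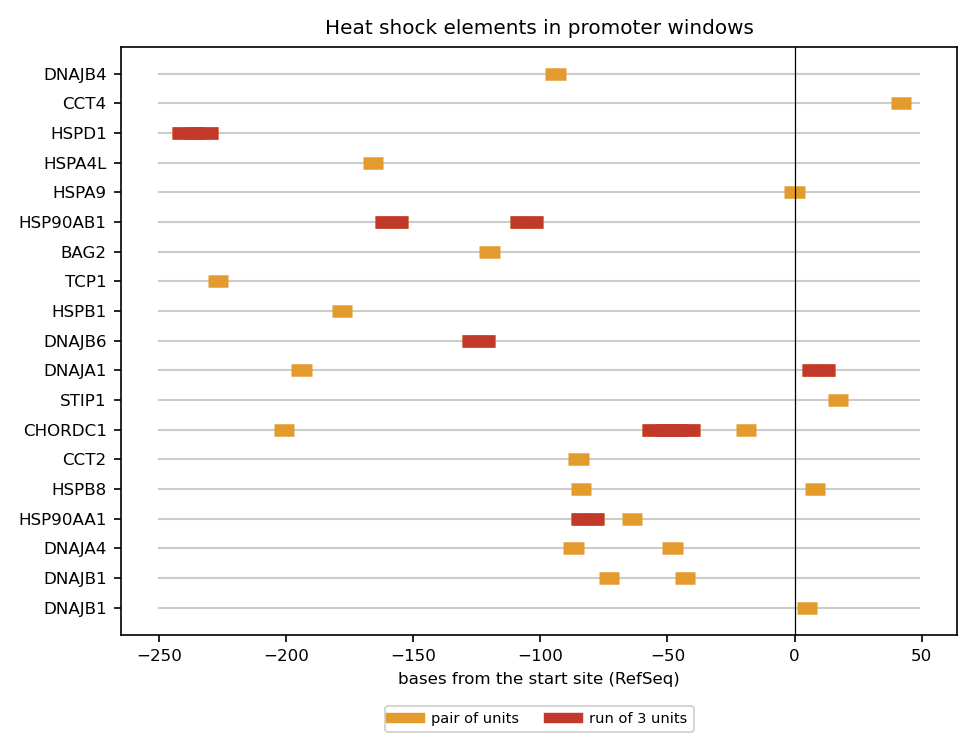
Heat shock elements in the promoter windows that held at least a pair of units, with the distance from the RefSeq start site in bases on the x axis and 1 line per window (DNAJB1 has 2); orange marks a pair and red a run of 3 units. Runs are seen in 6 genes, and those of HSP90AA1, HSP90AB1, HSPD1, DNAJB6 and CHORDC1 lie before the start site of the window shown.

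Levels were compared between genes only per length, in TPM, computed from the counts and the exon length. That length joins all annotated exons of a gene. It exceeds the longest annotated transcript of genes such as HSP90AA1, HSPE1, HSPB11 and CHORDC1, so the order of genes and the ratios between genes depend on it. In si-NC, HSP90AB1, the constitutive cytosolic HSP90, stood at 1359 ± 19.6 TPM (SD, n = 3) and was the most abundant of the 42. HSPB1, the small heat shock protein HSP27, followed at 1012 ± 49.3 TPM, CCT7 at 572 ± 11.5 TPM and HSPD1 at 443 ± 10.8 TPM. These 4 levels did not overlap between libraries. CDC37, HSPA9, PTGES3 and CCT4 then lay between 318 and 321 TPM and could not be ordered beyond their spread, and over the whole order the si-NC libraries overlapped in 20 of the 41 neighbouring pairs. HSP90AA1, the stress-inducible cytosolic HSP90, was the 18th at 128 ± 1.58 TPM. At the low end, CHORDC1 stood at 8.14 ± 0.25 TPM, HSPB8 at 0.44 ± 0.16 TPM and DNAJA4 at 0.16 ± 0.072 TPM. HSPB8 had 4 to 13 counts and DNAJA4 3 to 9 counts per library, too few to enter the fit, which left 40 of the 42 genes tested.

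**Figure D2:**
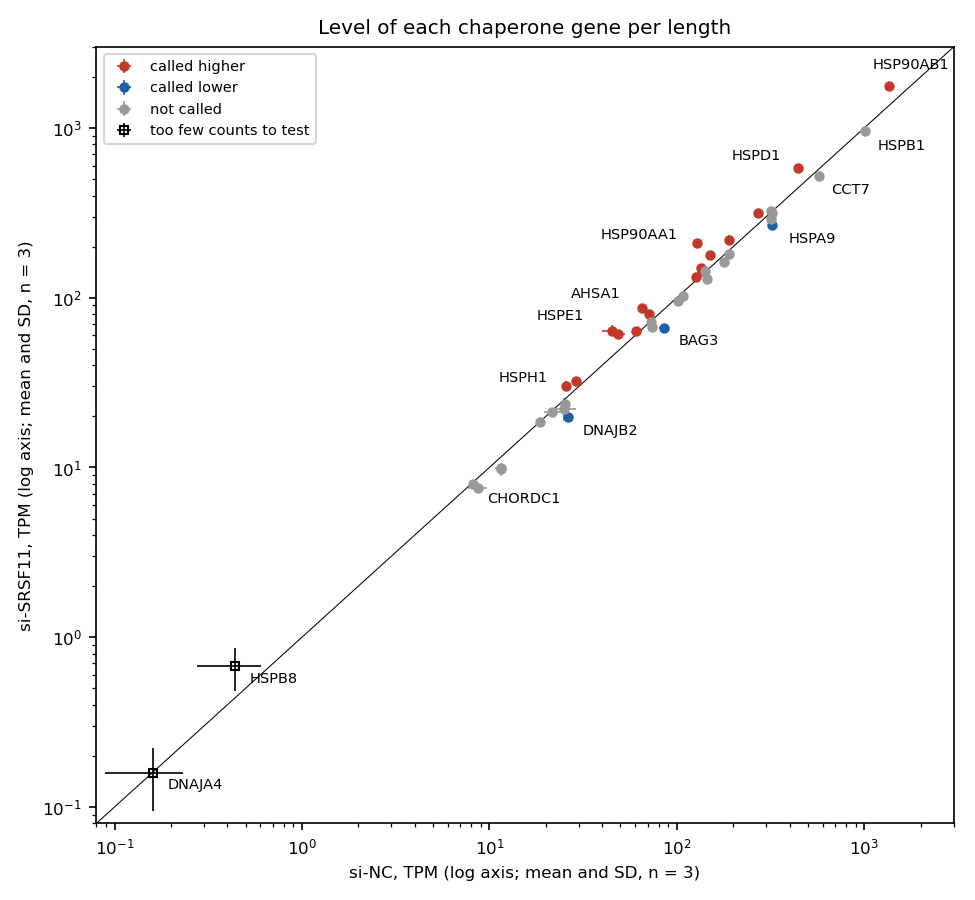
TPM of each of the 42 genes in si-NC (x axis) and si-SRSF11 (y axis), both log axes, as the mean and SD of 3 libraries, with the diagonal marking equal values. TPM was not scaled as in the fit, so a gene unchanged in the fit, such as HSPB1, lies slightly below the diagonal. HSP90AB1 and HSPB1 lie at the top, HSP90AA1 lies furthest above the diagonal among the tested genes, and HSPB8 and DNAJA4 lie below 1 TPM.

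A gene was called higher or lower in si-SRSF11 at an adjusted p under 0.05 in edgeR's quasi-likelihood test with Benjamini-Hochberg adjustment over all 15801 tested genes. Of the 40 tested chaperone genes, 16 were called higher and 3 lower, where 13.2% of all tested genes were called higher and 11.4% lower. The median log2 fold change (si-SRSF11 over si-NC) was 0.065 for the 40 genes and 0.002 for all tested genes. The libraries of the conditions did not overlap for 21 of the 40, with si-SRSF11 above for 16 and below for 5, where 38.8% of all tested genes did not overlap in either direction. Among genes at a mean log2 CPM of at least 5, where 37 of the 40 lie, 21.1% of all tested genes were called higher and 16.6% lower, and the same counts of 16 higher and 3 lower applied to the 37. Because this contrast chose the genes, nothing is read from these counts beyond the description. No gene of the 40 passed a log2 fold change of 1 in either direction. With library-size scaling in place of TMM scaling, 13 were called higher and 3 lower (81.2% of the calls higher, against 84.2%), while all tested genes went from 2081 higher and 1805 lower (53.6% higher) to 1585 higher and 2289 lower (40.9% higher).

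**Figure D3:**
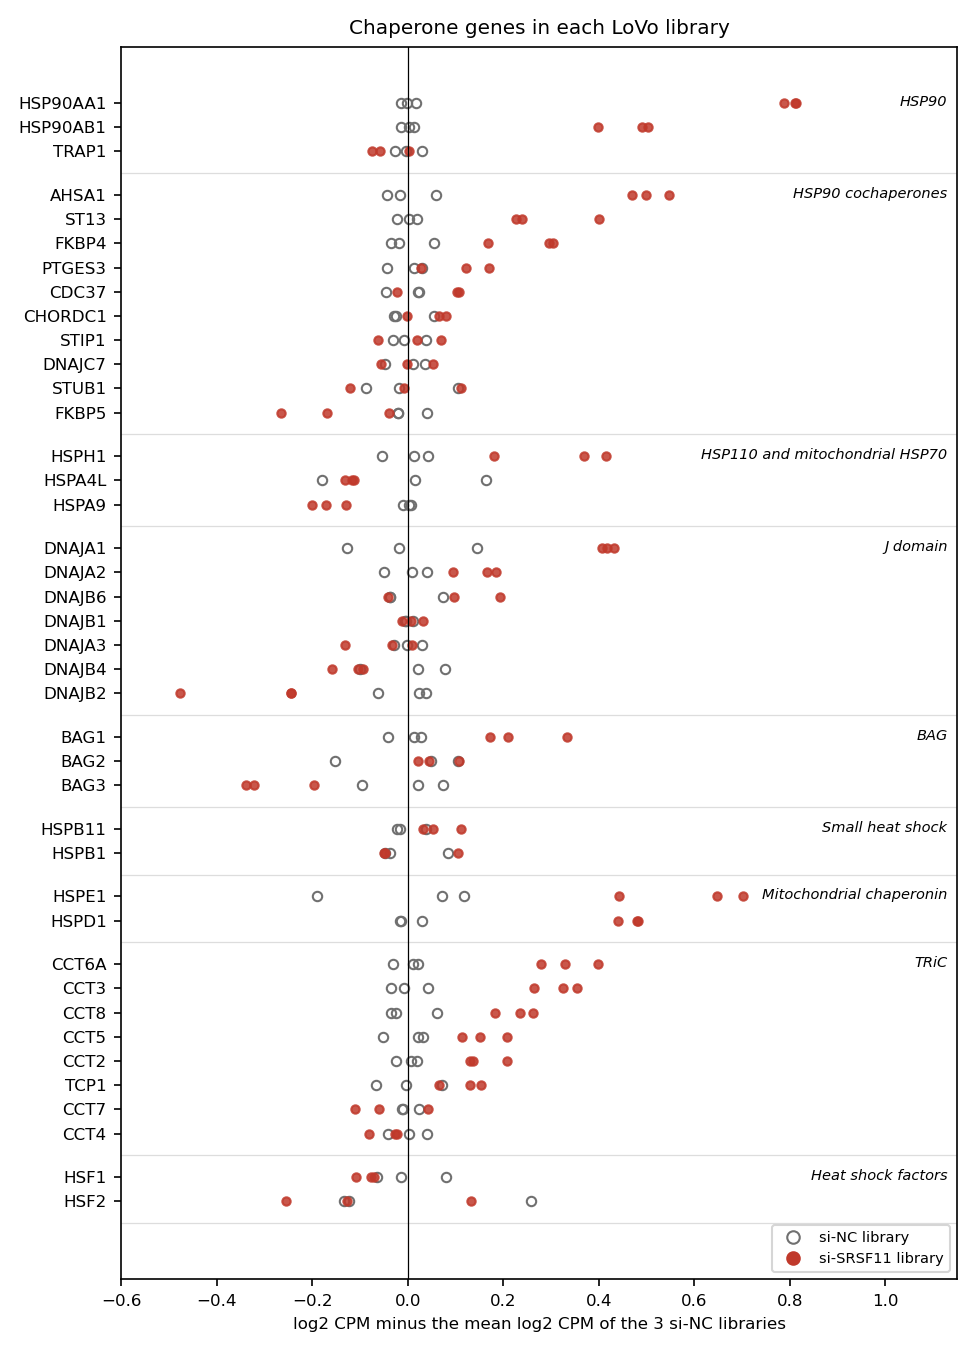
Log2 CPM of the 40 tested genes in each library, on the x axis as the difference from the mean of the 3 si-NC libraries, with open circles for si-NC and filled circles for si-SRSF11, in groups by role. HSP90AA1 lies furthest right, HSP90AB1, AHSA1, HSPD1, HSPE1 and DNAJA1 follow without overlap, and DNAJB2, BAG3 and HSPA9 lie left of their si-NC libraries.

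Both cytosolic HSP90 genes rose. HSP90AA1 (ENSG00000080824, chr14:102080738-102139699, minus strand, hg38) was at 223, 221 and 226 CPM in the si-NC libraries and at 392.2, 391 and 385 CPM in the si-SRSF11 libraries. All 3 si-SRSF11 values lay far above all 3 si-NC values, and the spread within each condition was small. The log2 fold change was 0.80 (SE 0.04), or 1.75-fold, which placed HSP90AA1 237th of 15801 tested genes by log2 fold change and the 2nd of the 582 with a mean log2 CPM of at least 8. HSP90AB1 (ENSG00000096384, chr6:44246166-44253888, plus strand) was at 1358, 1348 and 1334 CPM in si-NC and at 1776, 1909 and 1893 CPM in si-SRSF11. Its groups did not overlap either, with a log2 fold change of 0.47 (SE 0.04), or 1.38-fold. TRAP1, the mitochondrial HSP90, was at 305 to 316 CPM in si-NC and 294 to 311 CPM in si-SRSF11, with overlapping libraries and a log2 fold change of -0.04 (SE 0.05).

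The balance within the cytosolic pair moved as well. HSP90AB1 exceeded HSP90AA1 10.7, 10.7 and 10.4 times in TPM in the si-NC libraries and 7.97, 8.59 and 8.65 times in the si-SRSF11 libraries, so the ratio went from 10.6 ± 0.19 to 8.41 ± 0.38 (SD, n = 3) without overlap. Put as a share of the pair, HSP90AA1 made up 8.60% ± 0.14 of the TPM in si-NC and 10.6% ± 0.43 in si-SRSF11. The beta gene remained the main source of cytosolic HSP90 transcript in every library.

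Of the 10 HSP90 cochaperones, 3 rose and none fell, a share near the 21.1% called higher among all genes at a mean log2 CPM of at least 5, and the median log2 fold change was 0.056. AHSA1, which stimulates the HSP90 ATPase, was at 63.0, 66.3 and 61.8 CPM in si-NC and 90.0, 88.1 and 93.0 CPM in si-SRSF11, a log2 fold change of 0.50 (SE 0.05). ST13, also known as HIP, which binds HSP70 and takes part in client transfer to HSP90, went from 258, 266 and 263 CPM to 307, 346 and 310 CPM, a log2 fold change of 0.29 (SE 0.05). FKBP4, the immunophilin FKBP52 of steroid receptor complexes, went from 121, 120 and 127 CPM to 138, 151 and 151 CPM, a log2 fold change of 0.26 (SE 0.05). In each of these genes every si-SRSF11 library lay above every si-NC library. PTGES3 (p23), which stabilizes the closed HSP90 state, had a log2 fold change of 0.11 (SE 0.05), and CDC37, which brings kinases to HSP90, had 0.06 (SE 0.05). STIP1 (HOP), which bridges HSP70 and HSP90, stood at 0.01 (SE 0.05), CHORDC1 at 0.05 (SE 0.07), and the ubiquitin ligase STUB1 (CHIP) and the J domain cochaperone DNAJC7 both at -0.00 (SE 0.06 and 0.05). The libraries of these uncalled genes overlapped. FKBP5 (FKBP51), which opposes FKBP4 in steroid receptor complexes, was at 41.9, 40.2 and 40.2 CPM in si-NC and 36.3, 39.7 and 33.9 CPM in si-SRSF11, without overlap but not called (log2 fold change -0.15, SE 0.07).

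The HSP110 proteins exchange nucleotide on HSP70, and HSPA9 (mortalin) is the HSP70 of the mitochondrial matrix. HSPH1 (HSP105) rose from 68.5, 73.2 and 71.8 CPM to 80.7, 94.8 and 91.9 CPM, a log2 fold change of 0.32 (SE 0.06). HSPA4L, its relative, had overlapping libraries at 29.7 to 37.6 CPM in si-NC and 30.7 to 31.1 CPM in si-SRSF11. HSPA9 fell, from 883, 873 and 880 CPM to 765, 803 and 780 CPM, a log2 fold change of -0.17 (SE 0.04). The mitochondrial HSP70 gene and the mitochondrial chaperonin genes therefore had opposite signs.

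HSPD1 and HSPE1 both rose. HSPD1 (ENSG00000144381, chr2:197486581-197516737, minus strand) was at 639, 619 and 619 CPM in si-NC and at 872, 849 and 874 CPM in si-SRSF11, a log2 fold change of 0.47 (SE 0.04), or 1.38-fold. HSPE1 (ENSG00000115541, chr2:197499994-197503457, plus strand) was at 31.9, 30.9 and 25.8 CPM in si-NC and at 39.96, 46.1 and 47.9 CPM in si-SRSF11, a log2 fold change of 0.60 (SE 0.08), or 1.51-fold. Neither gene had overlapping conditions. Per length, HSPD1 exceeded HSPE1 9.94 ± 1.07 times in si-NC and 9.08 ± 0.94 times in si-SRSF11 (SD, n = 3), and these ratios overlapped. Annotated exons of HSPD1 and HSPE1-MOB4 together overlap 23.9% of the HSPE1 exon bases. HSPE1-MOB4, a joined gene on the strand of HSPE1, held 3 counts over all libraries. HSPD1 shares 281 exon bases with HSPE1. No source says whether strand was used in counting, so reads from those bases cannot be told apart.

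TRiC is built from 8 different subunits that stand side by side in each ring. Of their 8 genes, 5 rose, none fell, and the median log2 fold change was 0.158. Among all genes at a mean log2 CPM of at least 5, 21.1% were called higher and 16.6% lower. The TRiC genes belong to the list chosen on this contrast, so nothing is read from their count. CCT6A went from 190, 196 and 197 CPM to 236, 256 and 244 CPM, a log2 fold change of 0.34 (SE 0.05), and CCT3 from 352, 358 and 371 CPM to 433, 451 and 460 CPM, a log2 fold change of 0.31 (SE 0.05). CCT8 followed at 146, 156 and 147 CPM against 170, 180 and 176 CPM, a log2 fold change of 0.23 (SE 0.05). CCT2 and CCT5 had smaller differences, each with a log2 fold change of 0.16 (SE 0.05), and their calls were lost without si-NC replicate 2 and without si-SRSF11 replicate 2. TCP1 (CCT1) had a log2 fold change of 0.12 (SE 0.05) and was called only without si-SRSF11 replicate 1. CCT4 and CCT7 lay on the other side of 0, both at -0.04 (SE 0.05), with overlapping libraries. CCT7 was the most abundant subunit transcript per length, and the ratio of the highest to the lowest subunit went from 4.54 ± 0.14 in si-NC to 3.96 ± 0.23 in si-SRSF11 (SD, n = 3). The summed TPM of the 8 genes was 1848 ± 24.5 in si-NC and 1880 ± 19.6 in si-SRSF11, with overlapping libraries. On the CPM scale the sum was 2358, 2327 and 2389 in si-NC and 2474, 2597 and 2622 in si-SRSF11, without overlap. The scales differ, since CPM was TMM-scaled while TPM was not and is divided by length. Genes unchanged in the fit were lower in si-SRSF11 in TPM. HSPB1 (log2 fold change 0.00) went from 1012 to 957 TPM and DNAJB1 (0.01) from 108 to 103 TPM.

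**Figure D4:**
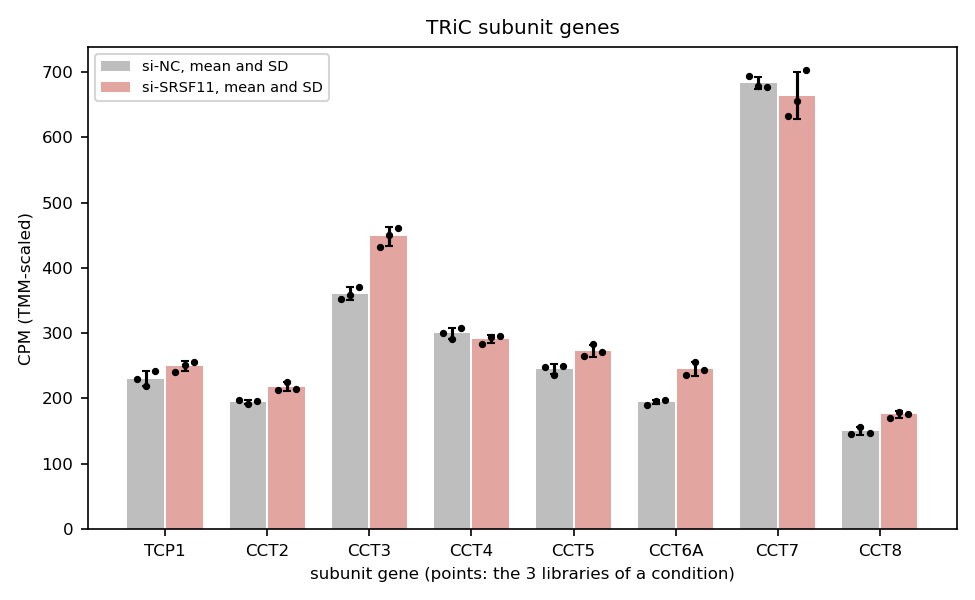
CPM of the 8 TRiC subunit genes, as bars for the mean, error bars for the SD and points for the 3 libraries of each condition. CCT3, CCT6A and CCT8 stand clear of their si-NC bars, while CCT4 and CCT7 overlap with theirs.

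J domain proteins deliver clients to HSP70. Of the 7 tested, 2 rose and 1 fell. Among all genes at a mean log2 CPM of at least 5, 21.1% were called higher and 16.6% lower. DNAJA1, a farnesylated cytosolic member, rose from 43.4, 48.6 and 40.2 CPM to 58.6, 59.2 and 58.2 CPM, a log2 fold change of 0.41 (SE 0.07). DNAJA2, its close relative, was at 98.5, 103 and 105 CPM in si-NC and 109, 114 and 116 CPM in si-SRSF11, a log2 fold change of 0.15 (SE 0.05), and its call was lost without si-NC replicate 1, si-NC replicate 2, si-SRSF11 replicate 2 or si-SRSF11 replicate 3. DNAJB2, which carries ubiquitin-interacting motifs and is best known in neurons, fell from 52.5, 49.5 and 53.0 CPM to 37.1, 43.6 and 43.6 CPM, a log2 fold change of -0.32 (SE 0.07). DNAJB1 (HSP40), a classical HSF1 target, was at 131, 133 and 132 CPM in si-NC and at 131, 135 and 133 CPM in si-SRSF11, a log2 fold change of 0.01 (SE 0.05). The groups overlapped there. DNAJB6, DNAJA3 and DNAJB4 had log2 fold changes of 0.08 (SE 0.06), -0.05 (SE 0.05) and -0.12 (SE 0.10), also with overlap.

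BAG proteins release nucleotide from HSP70 and link it to degradation, and here the members went different ways. BAG1, which couples HSP70 to the proteasome, rose from 69.2, 65.9 and 68.5 CPM to 76.5, 78.5 and 85.5 CPM, a log2 fold change of 0.24 (SE 0.06). BAG3, which works with HSPB8 in selective autophagy and is itself stress-inducible, fell from 79.3, 73.1 and 82.2 CPM to 61.8, 68.2 and 62.4 CPM, a log2 fold change of -0.29 (SE 0.06). BAG2 overlapped, at 0.05 (SE 0.07), and 44.2% of its exon bases lie over exons of neighbouring genes. Of the small heat shock genes, HSPB1 was at 532, 536 and 583 CPM in si-NC and 531, 532 and 591 CPM in si-SRSF11, a log2 fold change of 0.00 (SE 0.05), and HSPB11, an intraflagellar transport subunit despite its name, was at 0.07 (SE 0.05).

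The transcription factors were not called. HSF1 was at 255, 246 and 272 CPM in si-NC and at 244, 238 and 245 CPM in si-SRSF11, without overlap and with a log2 fold change of -0.09 (SE 0.05). HSF2 overlapped, at 20.3 to 26.6 CPM in si-NC and 18.6 to 24.4 CPM in si-SRSF11, with a log2 fold change of -0.09 (SE 0.11). The activity of HSF1 was not measured.

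Set beside the promoters, the 6 genes with a run of 3 units had a median log2 fold change of 0.44, and 4 of them (HSP90AA1, HSP90AB1, HSPD1 and DNAJA1) were called higher, while CHORDC1 and DNAJB6 were not called. The 28 tested members with a window and no run had a median of 0.009, with 9 called higher and 3 lower. For a pair, the 16 tested genes that had one held 5 higher calls and 1 lower, and the 18 without one held 8 higher and 2 lower. Among genes outside the 42, the 47 tested with a run held 9 higher calls and 3 lower with a median of 0.052, and the 10523 without one held 1530 higher and 1280 lower with a median of 0.009. HSPE1 (log2 fold change 0.60) is among the members without a run, since the HSPD1 stretch lies 292 bases before its start site, outside its window. The changes of the members are those of the contrast that chose them, so nothing is read from these differences. Whether the run bears on the level was not tested.

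Chaperone genes have many processed copies, which can share reads with their parents. The table held 100 named copies, of which 8 had enough counts to be tested. Together the copies of HSPE1 held 3.64% as many counts as HSPE1, those of PTGES3 1.18%, those of HSPD1 1.16%, those of ST13 1.02%, those of HSP90AA1 0.384% and those of HSP90AB1 0.174%. HSPD1P1 and HSPE1P2 were called higher with their parents, at log2 fold changes of 0.65 (SE 0.14) and 1.32 (SE 0.40). HSPE1P2 was near the count limit, with 6 to 10 counts per library in si-NC and 14 to 31 in si-SRSF11. The reads of these copies cannot be assigned firmly to copy or parent. Overlapping exons of neighbouring genes also cover 42.4% of the exon bases of STUB1, 30.1% of those of CCT5 and 29.3% of those of TRAP1. Among the 33 genes that share under 10% of their exon bases with an overlapping gene and under 10% of their 100-base windows with any other transcript, 31 were tested, and 12 were called higher and 3 lower. All 42 genes together took 0.934% ± 0.0038 of the counts in si-NC and 1.03% ± 0.016 in si-SRSF11 (SD, n = 3).

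Other protein-folding genes, from lists that were also drawn up with earlier results known, give the surroundings. Of all tested genes, 13.2% were called higher and 11.4% lower, and of those at a mean log2 CPM of at least 5, 21.1% and 16.6%. Adjusted p values here are from edgeR's quasi-likelihood test with Benjamini-Hochberg adjustment over all tested genes. Of 12 tested HSP70 family entries, 4 rose and none fell, with a median log2 fold change of 0.126. HSPA8, the constitutive cytosolic HSP70 that feeds clients to HSP90, went from 298, 289 and 318 CPM to 482, 477 and 472 CPM (log2 fold change 0.66, SE 0.05, adjusted p = 1.4e-09). HSPA5 (BiP), the HSP70 of the endoplasmic reticulum, was 0.13 higher (SE 0.04, adjusted p = 0.018). HSPA14 is listed under a pair of overlapping gene identifiers, of which ENSG00000187522 rose by 0.57 (SE 0.10, adjusted p = 2.5e-04) and ENSG00000284024 was at 0.12 (adjusted p = 0.23). Of the stress-inducible members, HSPA1B had 154 to 296 counts per library and rose by 0.35 (SE 0.12, adjusted p = 0.039), its near-identical copy HSPA1A had 5 to 11 counts and HSPA6 had 0 to 1. How reads were split between HSPA1A and HSPA1B is uncertain. Without si-NC replicate 1, without si-NC replicate 2 and with library-size scaling, 2 of the HSP70 entries rose.

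Of 22 further HSP90 paralogs, cochaperones and assembly factors, 5 rose and 3 fell, with a median of 0.038. These shares are near the 21.1% higher and 16.6% lower among all genes at a mean log2 CPM of at least 5. The endoplasmic reticulum HSP90, HSP90B1 (GRP94), went from 390 ± 6.92 to 537 ± 13.2 CPM (SD, n = 3; log2 fold change 0.46, SE 0.04, adjusted p = 1.1e-07). NUDC, a dynein-linked HSP90 cochaperone, was 0.47 higher (SE 0.05, adjusted p = 5e-07), and its relative NUDCD3 was 0.35 higher (SE 0.06, adjusted p = 1.2e-04). The number that rose was 3 without si-NC replicate 1, si-NC replicate 3 or si-SRSF11 replicate 2, and the number that fell was 1 without si-SRSF11 replicate 2 and 5 without si-SRSF11 replicate 3.

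The chaperonin helpers are prefoldin and prefoldin-like proteins, the phosducin-like proteins and the tubulin cofactors, with the TRiC subunit paralog CCT6B. They held 18 tested entries, of which 5 rose and 1 fell (median 0.064). The tubulin cofactor TBCE is listed under a pair of gene identifiers, and neither these entries nor CCT6B were called. Among all genes at a mean log2 CPM of at least 5, 21.1% were called higher and 16.6% lower. URI1, a prefoldin-like protein, was 0.27 higher (SE 0.06, adjusted p = 0.0012), the tubulin cofactor TBCD 0.24 (SE 0.05, adjusted p = 0.0018) and the prefoldin subunit VBP1 0.23 (SE 0.06, adjusted p = 0.011). The number higher was 2 without si-NC replicate 3 and 3 without si-NC replicate 2, si-SRSF11 replicate 2 or si-SRSF11 replicate 3, while the number lower was 3 without si-SRSF11 replicate 3 and 0 without si-NC replicate 1, si-NC replicate 2, si-SRSF11 replicate 1 or si-SRSF11 replicate 2.

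Among 30 other J domain proteins, 3 rose and 5 fell (median -0.051), where 13.2% of all tested genes were called higher and 11.4% lower. The stress-regulated DNAJB9 of the endoplasmic reticulum fell by 0.58 on the log2 scale (SE 0.10, adjusted p = 2.3e-04), and DNAJC1, another endoplasmic reticulum member, fell by 0.29 (SE 0.06, adjusted p = 6.4e-04). Next came DNAJC13, an endosomal protein that was 0.37 higher (SE 0.10), and DNAJC8, a spliceosome-associated protein that was 0.18 lower (a log2 fold change of -0.18, SE 0.05), both at an adjusted p of 0.0087. The number that fell was 3 without si-NC replicate 1, si-NC replicate 3 or si-SRSF11 replicate 1, and 1 rose without si-NC replicate 3.

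Of 8 HSP70 exchange factors, where 21.1% of all genes at a mean log2 CPM of at least 5 were called higher, 2 rose and none fell. Both serve the mitochondrial HSP70, GRPEL2 at a log2 fold change of 0.37 (SE 0.05, adjusted p = 1.1e-05) and GRPEL1 at 0.17 (SE 0.06, adjusted p = 0.041), and HSPA9, their partner, fell. Leaving out si-NC replicate 1, 2 or 3, or si-SRSF11 replicate 1 or 3, left 1 of the 8 higher. The 17 mitochondrial quality control genes held 2 higher and 2 lower calls (median 0.011), near the 13.2% and 11.4% of all tested genes. DNAJC19, called lower here, is also listed with the other J domain proteins, so its call is counted in both lists. The smallest adjusted p values were those of PHB, a prohibitin, at 0.33 (SE 0.05, adjusted p = 7.7e-05), CLPB, a mitochondrial disaggregase, at 0.25 (SE 0.08, adjusted p = 0.023) and PAM16, of the import motor, at -0.35 (SE 0.11, adjusted p = 0.025). None was called lower without si-NC replicate 1, si-NC replicate 3 or si-SRSF11 replicate 2, and 1 was called higher without si-NC replicate 3 or si-SRSF11 replicate 2.

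Of 12 regulators and further targets of HSF1, 2 rose and 2 fell (median -0.033), where 13.2% of all tested genes were called higher and 11.4% lower. SERPINH1 (HSP47), the collagen chaperone, was at 0.26 (SE 0.05, adjusted p = 3.3e-04), and HSBP1, which binds HSF1 trimers, also at 0.26 (SE 0.05, adjusted p = 5.3e-04). The lower calls numbered 1 without si-NC replicate 3 and without si-SRSF11 replicate 2. Of 7 other small heat shock genes, 2 had enough counts and neither was called, with a median of -0.615. Both were near the count limit with overlapping libraries. HSPB7 had 2 to 23 counts per library (-1.17, SE 0.54) and HSPB6 had 12 to 22 (-0.06, SE 0.35). The share of calls in each list is plotted beside that of all tested genes.

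**Figure D5:**
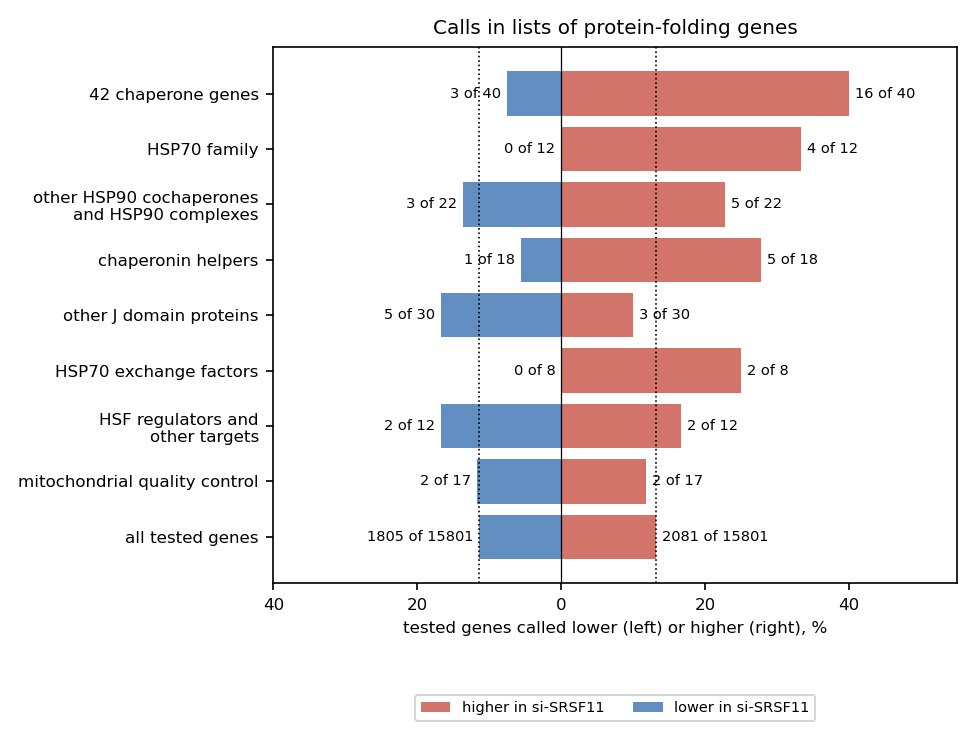
Share of tested genes called lower (left) and higher (right) in si-SRSF11 in each list, in percent, with the number called of those tested at each bar and dotted lines at 11.4% and 13.2% for all tested genes. The 42 chaperone genes (16 of 40 higher) were selected on this contrast, and no list was tested as a set.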

How the data were processed

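Gene-level read counts for 6 LoVo libraries (3 si-NC, 3 si-SRSF11; NEBNext Ultra poly(A) libraries, hg38) were used as the authors deposited them. These counts were made by the authors from reads aligned to hg38 and were not normalized; the aligner, the counter and its strand setting are not given in the sources used here. Conditions were taken from the labels, and no column of another sample was present. The chaperone genes and the other lists were chosen with earlier results of these data known. The genes named outside the 42 are, for each list, the 3 with the smallest adjusted p, and ties were kept; one item under this rule is not reported here. HSPA1A, HSPA1B and HSPA6 and the uncalled HSPA14 entry were added after their values were seen. DNAJC19, CCT6B and TBCE are named only to describe the lists.

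Genes that reached 10 counts in 3 or more libraries (15801 of 58735, of which 26909 had 0 counts throughout) were fitted in edgeR 4.0.16 under R 4.3.3 by the quasi-likelihood test with TMM scaling, all 6 libraries and no covariate. P values were adjusted by Benjamini-Hochberg over all tested genes, and a call is an adjusted p under 0.05. CPM used TMM-scaled library sizes. TPM used the exon length given in the table. Overlapping exons and shared 100-base windows came from GENCODE release 29, and promoters from RefSeq. The fit was tested on simulated data. Alternatives were DESeq2 1.42.0, other scalings and filters, protein-coding genes only, a replicate block and leaving out each library.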

Additional observations from a re-analysis of the deposited data

How the results depend on the processing

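Each of the 13 other settings named above was run. The number of chaperone genes called higher was 13 to 17 and the number called lower 3 to 4, against 16 and 3, and 16 of the 19 called genes kept their call in every alternative. The exceptions were DNAJA2, CCT2 and CCT5, whose calls were lost with library-size scaling; that of DNAJA2 was also lost with DESeq2 and with no filter on low counts. HSP90AA1 had a log2 fold change of 0.77 to 0.81. Library-size scaling moved the median of all tested genes to -0.033 and that of the chaperone genes to 0.030, from 0.065. Leaving out 1 library gave medians of 0.053 to 0.087, the highest without si-SRSF11 replicate 1. PTGES3 and FKBP5 were called without si-SRSF11 replicate 2. In the other lists, DESeq2 called 3 chaperonin helpers higher against 5 and 1 mitochondrial quality control gene lower against 2. For the exchange factors, 1 was called higher against 2 with DESeq2, library-size or upper-quartile scaling, no filter on low counts, or protein-coding genes only.

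The conditions share replicate numbers. The study speaks of pairs of RNA samples, but no source says whether the numbers mark these pairs, and the main fit used no pairing. Deviations of same-numbered libraries from their condition means correlated at 0.0151, 0.0362 and 0.0403. These correlations were small, but each of the 6 libraries correlated best with its own number (others -0.0337 to -0.00314). A pairing by number is therefore possible. With a replicate block, 16 chaperone genes were called higher and 3 lower with a median of 0.064, and all tested genes gave 2147 higher and 1889 lower calls against 2081 and 1805. With 3 libraries per condition, the spread of each gene rests on few values.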
